A study of Mus musculus with 22 samples.

Results

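Chromatin accessibility was compared between hepatocyte nuclei of mice with advanced and with mild steatohepatitis on the same choline-deficient diet, 3 libraries against 4, over all 68827 peaks of the count table. These are 7 of the 22 libraries of the series. The members were chosen by their labelled group alone, and no measured value entered the choice. All mice were male HEP-INTACT animals, in which nuclei of one cell class carry a tag and are pulled out of whole liver by immunoprecipitation before ATAC-seq. The sources used here do not name what drives the tag. The advanced and mild groups both ate CDAHFD for 7 weeks, a high-fat diet without choline whose protein is replaced by amino acids, and were separated by the histology of the liver: steatosis and inflammation were present in both, and fibrosis was significant only in advanced livers. Controls (4 libraries) received low-fat food over those weeks. The series also holds mice on FPC, a diet that supplies fructose, palmitate and cholesterol for 20 weeks, with 3 advanced, 4 mild and 4 control libraries. Because fibrosis itself sorted the mice, the comparison describes what went with it and cannot say which came first.

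ATAC-seq uses a transposase that cuts accessible DNA, so the reads in a peak measure how open that stretch of chromatin is, not how much a gene is transcribed. In steatohepatitis fat-laden hepatocytes meet inflammation, and stellate cells, the collagen-making cells of the liver, are activated and lay down scar. Injured hepatocytes are known to lose part of their metabolic programme and to gain features of bile duct cells. Choline is needed for phosphatidylcholine and so for the export of fat as lipoprotein, which is why diets that lack it fill the liver with fat.

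The sequences below belong to sites with large changes and are shown so that the regions behind the values can be read. They are RefSeq sequences of build GRCm38.p6, which is mm10. In the microRNAs, capitals mark the seed, bases 2 to 8, which pairs with target messages. The first set comes from a stretch of chromosome 8 where the chromatin between a pair of microRNA clusters was more open in advanced livers, on the minus strand for miR-181c and on the plus strand for the others.
mmu-miR-23a-3p, chr8:84208563-84208583: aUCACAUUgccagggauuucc
mmu-miR-27a-3p, chr8:84208727-84208747: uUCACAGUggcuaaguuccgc
mmu-miR-24-3p, chr8:84208875-84208896: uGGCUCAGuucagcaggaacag
mmu-miR-181c-5p, chr8:84178924-84178945: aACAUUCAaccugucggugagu
miR-181d-5p, whose gene lies beside that of miR-181c, has the same seed, ACAUUCA, whereas the seeds of miR-23a, miR-27a and miR-24 differ from it and from each other.

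The second set is the 250 bases before the annotated start of 4 promoters, written 5′ to 3′ on the gene's strand. Tspan15 and Dab2ip rose in advanced livers, and Lrtm1 and Thrsp fell. Capitals mark words that were searched for: TGANTCA, the AP-1 word, and TGACNNNGC, the core of the NRF2 word, which overlap in Lrtm1.
Tspan15, chr10:62231219-62231468, minus strand: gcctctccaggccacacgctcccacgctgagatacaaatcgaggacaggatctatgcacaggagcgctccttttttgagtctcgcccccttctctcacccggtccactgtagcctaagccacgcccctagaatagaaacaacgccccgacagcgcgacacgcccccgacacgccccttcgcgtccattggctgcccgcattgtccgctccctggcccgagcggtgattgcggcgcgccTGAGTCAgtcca
Dab2ip, chr2:35582590-35582839, plus strand: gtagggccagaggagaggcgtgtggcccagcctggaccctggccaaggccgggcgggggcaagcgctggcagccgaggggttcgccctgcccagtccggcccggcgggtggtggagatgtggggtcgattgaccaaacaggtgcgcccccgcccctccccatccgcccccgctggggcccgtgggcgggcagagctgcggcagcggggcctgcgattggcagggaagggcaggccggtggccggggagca
Lrtm1, chr14:29017958-29018207, plus strand: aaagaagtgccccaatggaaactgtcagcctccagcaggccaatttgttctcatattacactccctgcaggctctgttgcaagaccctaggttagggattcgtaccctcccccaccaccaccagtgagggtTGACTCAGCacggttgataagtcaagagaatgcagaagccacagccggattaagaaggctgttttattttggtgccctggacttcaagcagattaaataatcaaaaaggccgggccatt
Thrsp, chr7:97417551-97417800, minus strand: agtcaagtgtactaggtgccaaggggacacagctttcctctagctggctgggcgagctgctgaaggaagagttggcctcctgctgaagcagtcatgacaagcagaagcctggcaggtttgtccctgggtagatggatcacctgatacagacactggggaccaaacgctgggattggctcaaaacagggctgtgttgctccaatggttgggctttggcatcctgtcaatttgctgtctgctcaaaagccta
The Tspan15 word TGAGTCA begins 12 bases before the start. The Lrtm1 words begin 119 bases before it, and Dab2ip and Thrsp hold neither word in these bases.

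Total counts in peaks, in units of 1e6, ran from 6.08 to 9.33 per library and averaged 7.46 ± 1.62 in advanced and 7.66 ± 1.30 in mild livers, with overlap (SD, n = 3 and 4; exact permutation test, two-sided, p = 0.743). On the first principal component of log2 CPM over all peaks, with 54.0% of the variance of the 7 libraries, the advanced libraries scored 61.4, 79.3 and 54.8 and the mild libraries -60.1, -51.3, -28.6 and -55.6. The groups did not overlap there (exact permutation test, two-sided, p = 0.0571, the smallest that 3 against 4 allows). Correlations of log2 CPM across peaks were 0.956 to 0.960 within the advanced group, 0.945 to 0.969 within the mild group and 0.876 to 0.925 between the groups. Mild replicate 3 stood nearest to the advanced libraries, at 0.909 to 0.925. Set against the hepatocyte label, all 20 hepatocyte markers had a peak within 50 kb: Alb, which encodes albumin, had 16 and Hnf4a, a master regulator of hepatocytes, 11. So had 18 of 20 cholangiocyte, 15 of 20 endothelial, 9 of 22 macrophage, 6 of 21 lymphocyte and 4 of 21 stellate cell markers, while Lrat, Des and Dcn of stellate cells and Clec4f, Vsig4 and Cd68 of macrophages had none. The second component (13.9%) did not follow the groups, with 27.5, -0.59 and -32.8 in advanced and 11.7, 32.0, 14.8 and -52.5 in mild livers. Its lowest score in each group was that of the only library whose title number has 5 digits, advanced replicate 3 and mild replicate 4, where the others have 4. What the numbers stand for is not stated, and the labels name no sequencing batch. Nothing in them says more about the mice than a number each, so p-values measure the spread between libraries. The permutation tests above use these 7 libraries, and the adjusted p-values below use a spread estimated over all 22.

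**Figure D1:**
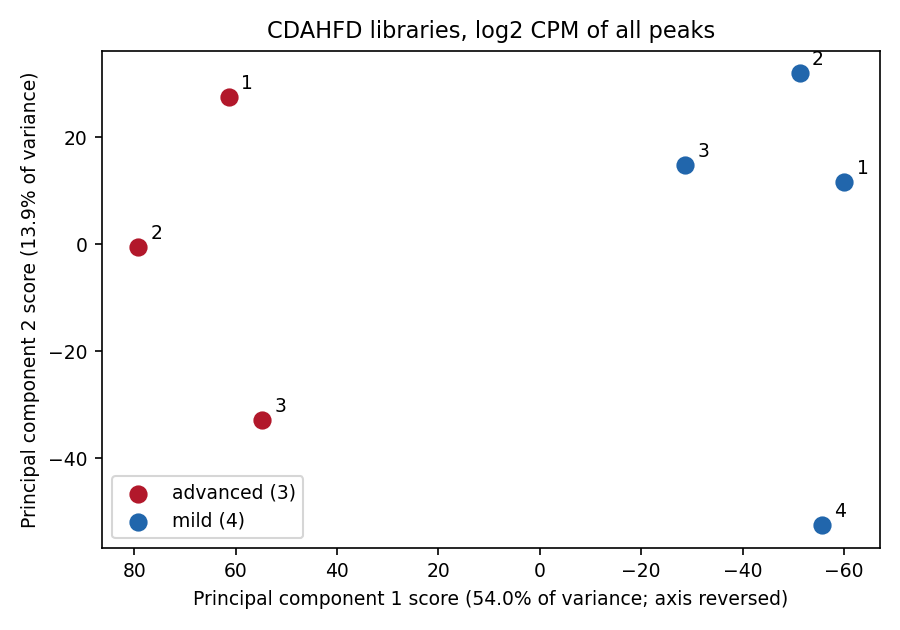
Scores of the 7 CDAHFD libraries on the first and second principal component of log2 CPM over 68827 peaks, 1 point per library labelled with its replicate number, with the first axis reversed. The 3 advanced libraries score 54.8 to 79.3 on the first component and the 4 mild libraries -60.1 to -28.6.

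In advanced livers 6389 peaks were more open and 4996 less open than in mild livers at an adjusted p under 0.05, which is 9.28% and 7.26% of all peaks. Of these, 2372 rose and 1145 fell by more than 2-fold. The median change over all peaks was -0.00 on the log2 scale. The higher calls were 56.1% of all calls, but 45.4% when libraries were scaled with an abundance-dependent loess curve, which gave 4607 higher and 5540 lower peaks. The counts rested partly on single libraries: without advanced replicate 2 there were 4238 higher and 2617 lower peaks. Without advanced replicate 1 there were 2853 lower peaks, and without mild replicate 4 there were 3203. The fits that left out 1 library still called 58.3% (without advanced replicate 2) to 88.3% (without mild replicate 3) of the 11385 peaks, and none passed in the opposite direction there. Loess scaling still called 74.4%, and 2 passed in the opposite direction. With the title numbers of 5 digits as a term, a fit chosen after seeing the data, 6762 peaks were higher and 5506 lower, and among libraries with 4-digit numbers alone 4875 were higher and 2735 lower.

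Changes were mostly away from gene starts. Of 15589 promoter peaks 6.33% rose and 1.75% fell, whereas of 27705 intronic peaks 9.66% rose and 8.91% fell, and of 21077 intergenic peaks 11.4% rose and 9.14% fell. Promoter peaks thus made up 15.4% of all rises and 5.46% of all falls. The excess of rises over falls at promoters was also there with median-ratio scaling, at 7.65% and 1.45%, and with loess scaling, at 5.77% and 1.86%. Further from genes the order turned: beyond 50 kb from any start 10.2% rose and 11.7% fell (10.6% and 10.8% with median-ratio scaling), and with loess scaling intronic peaks (6.67% and 9.90%) and intergenic peaks (7.69% and 10.2%) also fell more often than they rose. Peaks in long terminal repeats, remnants of retroviruses, rose in 8.51% and fell in 11.3% of 3560 cases.

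Strongly open sites away from promoters fell more often than they rose. Peaks were divided into 4 equal classes by their mean level over all 22 libraries. In the most open class 3.78% of 9106 sites outside promoters rose and 11.4% fell, while of 8101 promoters in it 4.27% rose and 1.52% fell. With loess scaling these shares were 4.24% and 10.1% outside promoters and 4.51% and 1.65% at promoters. In the weakest class the direction turned with the scaling: 19.9% of peaks were higher and 6.27% lower, but 7.76% and 13.3% with loess scaling. The 7 libraries compared, the controls and the FPC libraries together set the classes. A site open mainly in controls could therefore enter a higher class, so class and change are not independent.

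**Figure D2:**
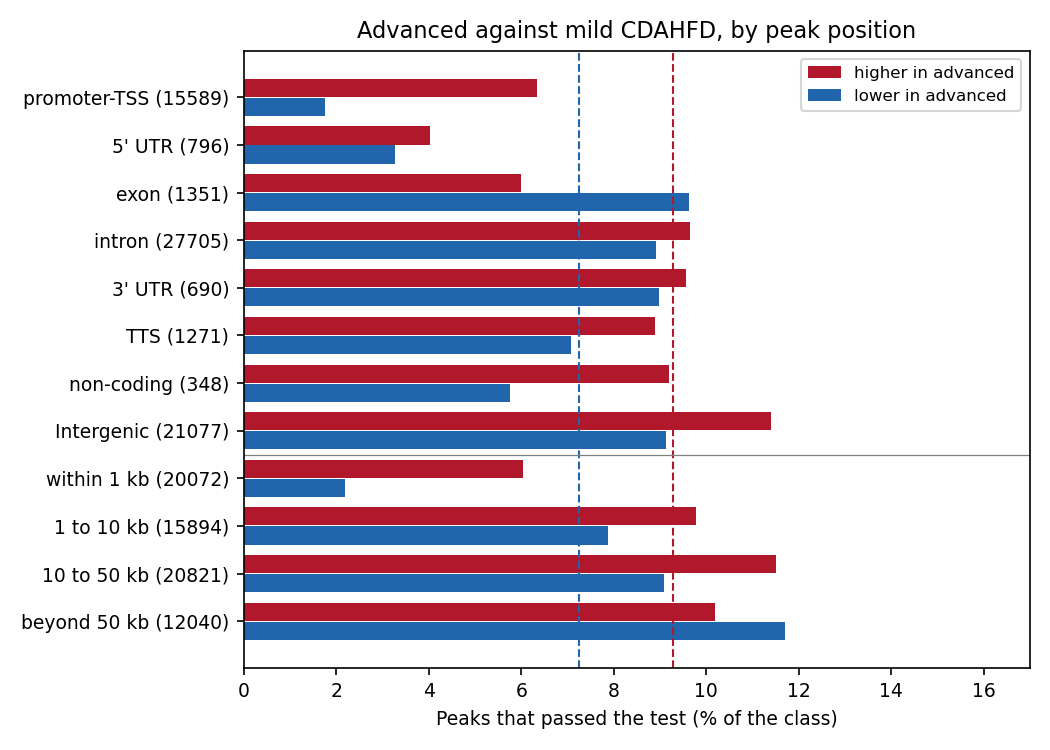
Share of peaks that passed the test in each region type (above the grey line) and distance to the nearest start (below it), in percent of the class, with the number of peaks in brackets. Red bars are peaks higher and blue bars peaks lower in advanced livers, and dashed lines mark the shares over all peaks, 9.28% and 7.26%.

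The largest rises among peaks of above-median abundance lay near Cd63, Mir1953, Rhoc, Mir181c and Abca5. These peaks were taken from 3028 that passed the test without overlap between the groups, had above-median abundance and lay within 50 kb of a start, at most 1 per gene. Abundance was the mean over all 22 libraries, so groups not compared here could carry a peak past this rule. The Mir5114 peak averaged 11.25 CPM in advanced and 4.03 CPM in mild CDAHFD livers, but 50.3 and 40.2 CPM on FPC. The Gm13547 peak averaged 0.872 and 3.10 CPM, but 14.2 CPM in controls and 16.6 CPM in mild FPC livers. Among all peaks the libraries did not overlap in 14.9% upward and 12.6% downward. The promoter peak of Cd63, a tetraspanin of late endosomes and secreted vesicles, at chr10:128909687-128909887, had 24.6, 30.4 and 28.6 CPM in advanced livers, against 7.77, 7.44, 10.7 and 10.7 CPM in mild livers. Every advanced library exceeded every mild one by more than 2-fold. The log2 change was 1.60 ± 0.16 (SE, adjusted p = 1.3e-06), and control livers averaged 2.22 ± 0.55 CPM (SD, n = 4).

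An intergenic peak nearest to Mir1953 (chr2:151962500-151962700) reached 35.3, 40.1 and 34.7 CPM in advanced livers, against 12.3, 10.7, 14.7 and 11.5 CPM in mild livers (log2 change 1.58 ± 0.15, adjusted p = 6.7e-07). The peak assigned to Rhoc, a small GTPase that remodels actin, lies in intron 17 of the neighbouring gene Mov10 (chr3:104796462-104796662). It had 28.6 ± 2.90 CPM in advanced livers and 9.59 ± 1.82 CPM in mild livers (SD, n = 3 and 4; log2 change 1.58 ± 0.18). Peaks near Rasa2, a brake on Ras signalling, and Abca5, an ABC transporter, had 41.0 ± 6.11 and 29.3 ± 0.998 CPM in advanced livers and 15.2 ± 2.17 and 10.4 ± 2.20 CPM in mild livers. Both were almost closed in controls, at 0.485 ± 0.278 and 0.793 ± 0.494 CPM. The other named rises, by 1.37 to 1.54 on the log2 scale, were nearest to Mir181c, Mir5114, Olfml2a, Mir7662 and Kcnab1, and the Mir7662 peak lies in intron 4 of Tspan15, whose promoter is printed above.

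Among peaks chosen by these rules the steepest fall was in an intron of Prex1, which encodes an activator of the GTPase Rac (chr2:166676957-166677157). It had 1.28, 1.34 and 1.28 CPM in advanced livers, against 10.6, 9.14, 6.15 and 9.63 CPM in mild livers and 16.3 ± 2.82 CPM in controls (SD, n = 4). The log2 change was -2.77 ± 0.31 (adjusted p = 3.3e-06), a 6.83-fold higher level in mild livers. A pair of neighbouring sites on chromosome 8 fell together. The first is a peak nearest to Dkk4, a secreted Wnt antagonist, that lies in intron 13 of Polb (chr8:22628503-22628703), with 0.748, 0.334 and 1.14 CPM in advanced livers, against 5.05, 3.79, 4.05 and 7.43 CPM in mild livers. The second is the promoter of the non-coding gene A930013F10Rik (chr8:22636945-22637145), with 2.50 ± 1.40 CPM in advanced livers and 12.7 ± 4.75 CPM in mild livers (SD, n = 3 and 4).

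In controls these peaks stood at 17.7 ± 2.26 and 28.0 ± 4.61 CPM, above both diet groups. An intronic peak of Camk2b, a calcium-dependent kinase, had 1.55 ± 0.467 CPM in advanced livers and 7.15 ± 1.67 CPM in mild livers. The remaining named falls, by 1.92 to 2.04 on the log2 scale, were near Gm30332, Sult2a7, Zcchc24, Rfc1, Gm13547 and Pik3cb, a catalytic subunit of PI3 kinase. The Pik3cb peak did not pass without mild replicate 4 (-1.45, adjusted p = 0.051). The other 19 named peaks passed in all 7 fits that left out 1 library.

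**Figure D3:**
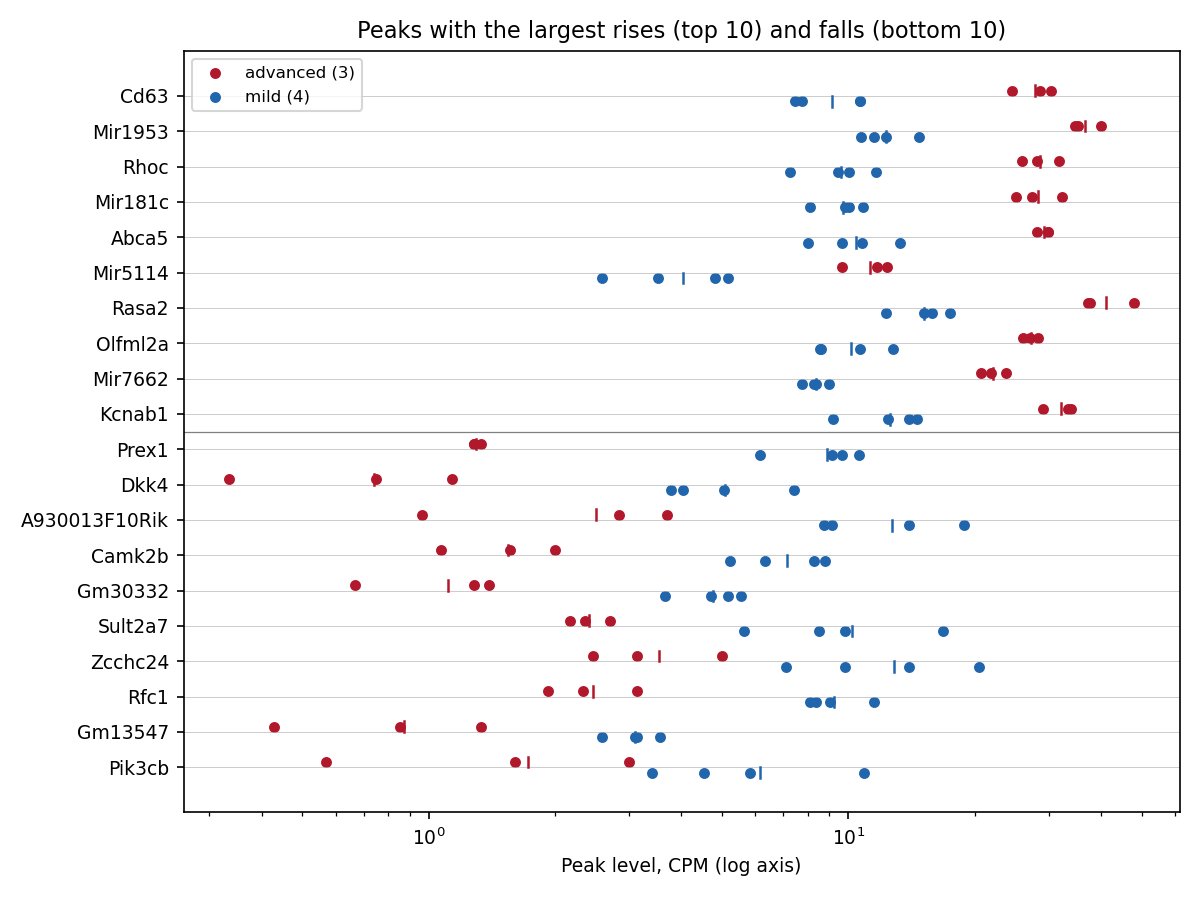
Level of the 10 peaks with the largest rise (upper block) and the 10 with the largest fall (lower block) in CPM on a log axis, named by nearest gene, with 1 point per library and a tick at each group mean (advanced red, 3 libraries; mild blue, 4 libraries). The Cd63 peak sits at 24.6 to 30.4 CPM in advanced and 7.44 to 10.7 CPM in mild livers, and the Prex1 peak at 1.28 to 1.34 and 6.15 to 10.6 CPM.

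Peaks with a start within 50 kb were then added up by gene, for 15686 genes. Of these, 1511 (9.63%) were higher and 1218 (7.76%) lower in advanced livers, 253 and 104 of them by more than 2-fold. Without advanced replicate 2 the counts were 971 and 640. Within 1 kb of the start they were 557 and 407. Of these called genes 26.9% were also called within 1 kb. Of 1905 genes with 2 or more called peaks, 870 had only rises, 574 only falls and 461 both.

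Among genes with at least 3 peaks, the largest rise was at Mir23a, the first gene of a cluster with Mir27a and Mir24-2. Its sum was 102, 146 and 126 CPM in advanced livers, against 47.8, 47.6, 63.1 and 49.5 CPM in mild livers, and 11.6 ± 2.09 CPM in controls (SD, n = 4). The log2 change was 1.26 ± 0.12 (adjusted p = 4.5e-07). A lack of overlap between the groups was a condition for the genes named here as largest changes. All 7 of its peaks rose, by 0.96 to 1.66 on the log2 scale, and they lie at -9916 to -4328 bases from the start. The single peak named for Mir181c (chr8:84192070-84192270), 13209 bases before that gene, sits between both clusters and rose to 27.4, 32.4 and 25.0 CPM in advanced livers, against 9.84, 8.10, 10.8 and 10.05 CPM in mild livers.

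B4galt6, which makes lactosylceramide, had 88.3, 95.8 and 92.1 CPM in advanced livers, against 37.0, 30.9, 51.3 and 45.4 CPM in mild livers (log2 change 1.16 ± 0.13), with all 8 peaks higher. Ddr1, a receptor tyrosine kinase that binds collagen, had 157, 176 and 169 CPM in advanced livers, against 80.4, 74.9, 115 and 95.1 CPM in mild livers (0.87 ± 0.12, adjusted p = 3.2e-05), with 7 of 9 peaks higher. Its control level was 19.3 ± 2.95 CPM, so mild livers already stood well above it. Rhoc rose by 0.99 ± 0.10 and Pygb, a glycogen phosphorylase, by 0.87 ± 0.09. Agfg1, Usp43, 1810010D01Rik and E330009J07Rik rose by 0.83 to 0.90.

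Pde10a, a cyclic nucleotide phosphodiesterase, had another order. It had 77.9, 49.0 and 61.8 CPM in advanced livers and 25.99, 26.4, 29.9 and 31.7 CPM in mild livers (1.15 ± 0.17), while controls stood between them at 41.1 ± 8.92 CPM. Genes with the most rising peaks were A630001O12Rik (11 of 30), Dab2ip (10 of 22), a Ras regulator, and Mir3089 (10 of 16), followed by Cdh1 (9 of 19), which encodes E-cadherin, and Myh9 (9 of 23, with 1 lower), a non-muscle myosin.

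The largest fall was at Trhde, which encodes an enzyme that degrades thyrotropin-releasing hormone, with 6.06, 6.36 and 5.90 CPM in advanced livers, against 22.4, 17.6, 13.5 and 22.04 CPM in mild livers (-1.65 ± 0.21, adjusted p = 1.4e-05) and 71.0 ± 3.61 CPM in controls. Susd4, a complement regulator, had 15.7 ± 2.29 CPM in advanced livers and 39.4 ± 2.56 CPM in mild livers (-1.33 ± 0.14). Cyp2e1, a cytochrome P450 of the hepatocytes around the central vein, had 90.6, 93.5 and 118 CPM in advanced livers, against 195, 205, 218 and 215 CPM in mild livers (-1.05 ± 0.19, adjusted p = 0.00044). All 13 Cyp2e1 peaks fell, at -15534 to 11774 bases from the start, by 0.46 to 1.83 on the log2 scale. Some of these peaks overlap and share reads. Controls varied, at 160 ± 53.1 CPM, and did not differ from mild livers beyond the test (0.37, adjusted p = 0.073).

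Tgfbr3, the coreceptor betaglycan that presents TGF-beta, had 29.9, 30.3 and 35.7 CPM in advanced livers, against 55.6, 59.6, 52.6 and 54.5 CPM in mild livers (-0.80 ± 0.09, adjusted p = 1.9e-06). Gm12718, Cacng3, Cnmd, 1700121N20Rik, Thrsp and Elovl3 fell by 0.78 to 1.23. With only the peaks within 1 kb the calls for Agfg1, Pygb, Trhde, Susd4 and Tgfbr3 were lost, with adjusted p-values of 0.95, 0.10, 0.085, 0.31 and 0.16. Mir23a, Pde10a, 1810010D01Rik, Cacng3 and 1700121N20Rik had no peak within 1 kb and could not be tested there. The calls of all 20 largest gene changes held in each fit that left out 1 library.

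In the biliary and progenitor list 10 of 18 measured genes were higher and none lower, where 9.63% and 7.76% of all genes were, with a median log2 change of 0.47 against 0.01 over all genes. Leaving out single libraries gave 8 to 10. Bicc1, an RNA-binding protein of ducts, had 13.6, 15.1 and 16.4 CPM in advanced livers, against 4.53, 3.64, 6.55 and 5.82 CPM in mild livers (1.55 ± 0.21, adjusted p = 2.3e-05). Sox4, a transcription factor of duct formation, had 61.6, 53.9 and 58.5 CPM in advanced livers, against 40.5, 35.8, 42.5 and 40.9 CPM in mild livers (0.54 ± 0.08, adjusted p = 7.3e-05). Sox9, which marks duct and progenitor cells, had 47.0, 57.6 and 55.5 CPM, against 34.8, 33.4, 43.8 and 38.9 CPM in mild livers (0.50 ± 0.14, adjusted p = 0.017). The Sox9 call was lost in 4 of the 7 fits without 1 library (adjusted p up to 0.088).

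Epcam, the adhesion molecule of duct epithelium, rose by 1.07 ± 0.23, and Krt19 and Krt7, keratins of duct cells, by 1.33 ± 0.31 and 1.25 ± 0.30, though from low levels. Krt19 had 4.45, 6.36 and 7.37 CPM in advanced livers, against 1.66, 1.21, 3.37 and 3.22 CPM in mild livers, in a single peak. Foxj1, Cldn7, Cd24a and Spp1, which encodes osteopontin, also rose. The Spp1 call was lost in 3 of the 7 fits without 1 library (adjusted p up to 0.087). The keratins that hepatocytes carry themselves, Krt8 and Krt18, changed by 0.16 ± 0.07 (adjusted p = 0.10) and 0.21 ± 0.08 (adjusted p = 0.067).

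This list shares genes with the markers of cholangiocytes, the cells that line bile ducts. Of 18 measured cholangiocyte markers 8 were higher and none lower, where 9.63% and 7.76% of all genes were. Without advanced replicate 2 or advanced replicate 3 there were 5, and with the 4-digit title numbers alone 4. The summed level of the markers was 1070 to 1134 CPM in advanced livers and 976 to 1075 CPM in mild livers, so the ranges met. More duct nuclei in the preparation and more open chromatin per hepatocyte nucleus cannot be told apart in bulk libraries, and the part of duct nuclei in these rises was not tested.

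Genes of the matrix and its proteases and receptors followed the same direction, with 8 of 23 higher and 1 lower (median 0.21). Over all genes 9.63% were higher and 7.76% lower. Lama5, a laminin chain of basement membranes, had 56.4, 57.8 and 58.0 CPM in advanced livers, against 26.9, 28.8, 27.5 and 32.7 CPM in mild livers (0.98 ± 0.10, adjusted p = 9.1e-07). Itga6, a laminin-binding integrin subunit, had 45.9, 52.0 and 46.9 CPM, against 24.3, 24.0, 24.1 and 30.7 CPM in mild livers (0.89 ± 0.12, adjusted p = 1.8e-05). Col1a1, a chain of the fibrillar collagen of scars, had 21.8, 24.5 and 24.3 CPM in advanced livers, against 12.4, 13.4, 12.7 and 12.9 CPM in mild livers (0.87 ± 0.15, adjusted p = 0.00028).

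Col1a1 and Itga6 did not differ between mild and control livers beyond the test (-0.08, adjusted p = 0.71, and 0.11, adjusted p = 0.46), whereas Lama5 was already higher in mild livers (1.04). The metalloprotease genes Adamts1 and Mmp7 rose by 0.41 ± 0.08 and 1.13 ± 0.23. Itga2, Lamc1 and Itgb6 rose by 0.32 to 0.59. The Itgb6 call was lost in 4 of the 7 fits without 1 library (adjusted p up to 0.15). Lamc1 was not called without advanced replicate 2 (adjusted p = 0.057). The exception was Fn1, which encodes fibronectin, a plasma protein that hepatocytes secrete: it fell by 0.18 ± 0.06 (adjusted p = 0.030), and that call was lost without advanced replicate 2, mild replicate 3 or mild replicate 4.

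Only 4 of 21 stellate cell markers had any peak within 50 kb, and Col1a1 was the one that rose. The others, Tagln, Pdgfra and Reln, changed by -0.34, -0.14 and -0.11, and none passed the test. The summed level of the 4 was 94.9 to 98.0 CPM in advanced livers and 95.9 to 102 CPM in mild livers, and Acta2, Des, Lrat, Pdgfrb, Col1a2 and Col3a1 had no peak.

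Secreted fibrosis factors were higher in 6 of 21 cases and lower in 1 (median 0.12), where 9.63% and 7.76% of all genes were. Pdgfb, a growth factor for stellate cells, had 6.93, 9.73 and 8.52 CPM in advanced livers, against 2.12, 0.910, 3.74 and 3.59 CPM in mild livers (1.67 ± 0.31, adjusted p = 0.00054) in its single peak. Lgals3, which encodes galectin-3, had 92.3, 108 and 90.9 CPM in advanced livers, against 60.5, 56.4, 68.9 and 65.1 CPM in mild livers (0.63 ± 0.09, adjusted p = 3.4e-05). Tgfb1, the main fibrogenic cytokine, rose by 0.44 ± 0.13 (adjusted p = 0.024) and Shh, the hedgehog ligand, by 0.62 ± 0.18 (adjusted p = 0.018). The rises numbered 4 without advanced replicate 2 or 3 or mild replicate 1 or 4 and 3 within 1 kb, and the calls of Tgfb1 and Shh were lost in 4 and 2 of the 7 fits (adjusted p up to 0.087 and 0.082). Vegfa, the angiogenic factor, was the member that fell, with 361, 412 and 386 CPM in advanced livers, against 443, 444, 451 and 470 CPM in mild livers (-0.23 ± 0.06, adjusted p = 0.0054). Its call was lost within 1 kb of the start (adjusted p = 0.47).

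Targets and members of the YAP and TEAD pathway, which senses cell stretch and matrix stiffness, rose in 8 of 21 cases, and none fell (1 without mild replicate 3). Over all genes 9.63% rose and 7.76% fell. Ctgf, its textbook target and also a fibrosis factor, had 42.3, 41.1 and 50.5 CPM in advanced livers, against 29.0, 28.8, 31.4 and 33.7 CPM in mild livers (0.53 ± 0.10, adjusted p = 0.00074). Myof had 36.5 ± 3.38 CPM in advanced livers and 18.6 ± 3.65 CPM in mild livers (0.95 ± 0.15, SD with n = 3 and 4). Arhgef17, Ptpn14 and Ankrd1 rose by 0.99, 1.07 and 1.21, the last in only 3 of the 7 fits without 1 library. In libraries with 4-digit title numbers alone 5 rose. Yap1 itself did not pass (-0.03 ± 0.07), nor did the target Cyr61 (-0.19 ± 0.07, adjusted p = 0.070).

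Of the Notch pathway, which directs duct fate, 3 of 17 genes rose: the target Heyl by 1.52 ± 0.26 in a single peak, the feedback gene Nrarp by 0.67 ± 0.12 and the target Hes1 by 0.19 ± 0.06. The Hes1 call was lost in 5 of the 7 fits without 1 library (adjusted p up to 0.20), namely all but those without advanced replicate 1 or mild replicate 3. AP-1 and immediate early genes rose in 9 of 22 cases and fell in 1. For both lists the shares over all genes are 9.63% higher and 7.76% lower. Klf4, Maff and Egr1, early transcription factors, rose by 0.41 ± 0.07, 0.34 ± 0.08 and 0.29 ± 0.07. Egr1 had 264, 290 and 287 CPM in advanced livers, against 212, 235, 248.95 and 223 CPM in mild livers. Jun did not pass (0.05 ± 0.05). Without advanced replicate 2 the list had 5 rises, and the fall, Mafg, was lost without advanced replicate 1 or 3 or mild replicate 1, 3 or 4.

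The transcription factors that the study chose, Elf3 and Glis2, were followed separately. Glis2, a zinc finger factor, had 101, 108 and 116 CPM in advanced livers, against 83.4, 85.3, 90.6 and 87.2 CPM in mild livers (0.33 ± 0.07, adjusted p = 0.0022), and mild livers stood at the level of controls, 85.4 ± 2.66 CPM. Elf3, an epithelial ETS factor, had 61.6, 60.2 and 60.6 CPM in advanced livers, against 53.5, 58.6, 58.2 and 49.0 CPM in mild livers. Its groups did not overlap, as in 15.3% of all genes upward and 12.9% downward, and the change did not pass (0.16 ± 0.08, adjusted p = 0.19). They are not independent evidence, because the study picked them on these mice.

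Among hepatocyte transcription factors the calls went the other way: 0 of 20 were higher and 5 lower, with a median of -0.07. Over all genes 9.63% were higher and 7.76% lower. Nr1i3, the xenobiotic receptor CAR, had 50.4, 45.6 and 54.6 CPM in advanced livers, against 73.4, 75.6, 62.5 and 79.6 CPM in mild livers (-0.54 ± 0.13, adjusted p = 0.0043). Thrb, a thyroid hormone receptor, fell by 0.28 ± 0.06. Nr0b2, a repressor of bile acid synthesis, and Ppara, the regulator of fatty acid oxidation, both fell by 0.26, but the Nr0b2 call was lost without advanced replicate 1 (adjusted p = 0.14) and the Ppara call in every such fit but that without advanced replicate 3 (up to 0.21). Hnf4a had 139, 139 and 142 CPM in advanced livers, against 141, 137, 140 and 144 CPM in mild livers (-0.01 ± 0.06, adjusted p = 0.94). Without advanced replicate 1, mild replicate 1 or mild replicate 2 the list had 3 falls.

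Of the products of hepatocytes few passed. Of 25 plasma protein genes 2 fell and none rose, where 7.76% of all genes fell. With the 7 libraries alone 6 fell, and in fits without single libraries 0 to 2 fell (0 without advanced replicate 2, mild replicate 1 or mild replicate 4, and 1 without advanced replicate 1, advanced replicate 3 or mild replicate 2). Alb had 335, 391 and 408 CPM in advanced livers, against 326, 349, 327 and 366 CPM in mild livers, with overlap (0.14 ± 0.08, adjusted p = 0.22).

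Genes with higher expression in males than in females, a pattern set by growth hormone pulses, fell in 6 of 16 cases, and none rose (median -0.29). Among all genes 7.76% fell and 9.63% rose. Susd4 and Elovl3, described above and here, lead this list: Elovl3, a fatty acid elongase, had 26.5, 26.7 and 25.9 CPM in advanced livers, against 43.2, 45.2, 44.9 and 47.3 CPM in mild livers (-0.78 ± 0.11, adjusted p = 4e-05). Cyp2d9 had 48.2, 43.8 and 58.0 CPM, against 83.0, 76.9, 86.1 and 81.5 CPM in mild livers (-0.71 ± 0.14, adjusted p = 0.0011). Mup20, a major urinary protein, and Serpina1e fell by 0.31 and 0.44. For these genes controls were higher still, at 75.2 ± 9.10 CPM for Elovl3 and 161 ± 23.9 CPM for Cyp2d9. Of 16 female-biased genes 1 rose and 1 fell, A1bg and Sult3a1. A1bg was not called without advanced replicate 1 (adjusted p = 0.058), and Sult3a1 in none of the fits without advanced replicate 1, 2 or 3 or mild replicate 4 (up to 0.28).

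Pericentral genes, active around the central vein, fell in 6 of 20 cases, and none rose (median -0.17). Among all genes 7.76% fell and 9.63% rose. Besides Cyp2e1, Cyp1a2 had 49.2, 51.8 and 56.7 CPM in advanced livers, against 73.8, 71.6, 66.3 and 70.7 CPM in mild livers (-0.43 ± 0.08, adjusted p = 0.00053). Rgn, which encodes regucalcin, and Tbx3, a Wnt-driven factor, fell by 0.33 ± 0.06 and 0.35 ± 0.08. Without advanced replicate 1 or 3 or mild replicate 2 or 4 there were 4 falls. Glul, glutamine synthetase of the innermost layer, changed by -0.31 ± 0.11 (adjusted p = 0.045), a call lost in 6 of the 7 fits without 1 library (up to 0.15). Periportal genes split, with 4 of 20 higher and 4 lower. Cdh1 had 256, 250 and 250 CPM in advanced livers, against 198, 180, 206 and 200 CPM in mild livers (0.36 ± 0.09, adjusted p = 0.0074), and Aldh1b1 rose by 0.41 ± 0.09. The periportal counts were unsteady: 2 rises without advanced replicate 3 or mild replicate 1, and 1 fall without advanced replicate 2 or mild replicate 4, or 2 without mild replicate 1.

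Bile acid genes fell in 4 of 20 cases, where 7.76% of all genes did, and none rose. Slc10a1, the main bile salt importer, had 56.7, 43.4 and 52.4 CPM in advanced livers, against 70.1, 63.7, 73.0 and 81.5 CPM in mild livers (-0.50 ± 0.11, adjusted p = 0.0021). Slco1b2, another importer, and Slc27a5, which activates bile acids for conjugation, fell by 0.31 ± 0.06 and 0.45 ± 0.10. Cyp7a1, the rate-limiting enzyme of bile acid synthesis, had 265, 194 and 267 CPM in advanced livers, against 231, 229, 257 and 257 CPM in mild livers, with no difference beyond the test (-0.00 ± 0.12).

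Of genes of choline and methionine metabolism, the axis the diet acts on, 4 of 27 fell, where 7.76% of all genes did, and none rose. Within 1 kb 1 fell. The falls were not particular to this diet: on FPC 13 of 27 fell, where 15.9% of all genes did, and none rose. The list median was -0.08 on CDAHFD and -0.23 on FPC, and the difference between diets passed for 0 of the genes. Pemt, which makes phosphatidylcholine without dietary choline, had 117, 121 and 125 CPM in advanced livers, against 150, 145, 145 and 174 CPM in mild livers (-0.35 ± 0.08, adjusted p = 0.0024). Dmgdh, which breaks down the choline product dimethylglycine, had 9.28, 8.42 and 12.5 CPM, against 15.7, 14.1, 17.97 and 22.5 CPM in mild livers (-0.82 ± 0.18, adjusted p = 0.0028). Shmt2, the mitochondrial serine hydroxymethyltransferase, fell by 0.37 ± 0.08. Ahcy, which hydrolyses S-adenosylhomocysteine, fell by 0.24 (adjusted p = 0.047), a call lost in 5 of the 7 fits without 1 library (up to 0.19). Bhmt, which remethylates homocysteine with betaine, changed by -0.28 ± 0.15 and did not pass (adjusted p = 0.22).

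The counts of lipid genes stand beside those over all genes, of which 9.63% rose and 7.76% fell. Of 22 genes of fatty acid synthesis 1 rose and 3 fell: Scd2, a desaturase isoform that adult hepatocytes use little, had 26.7, 32.2 and 33.8 CPM in advanced livers, against 11.6, 14.3, 20.2 and 18.8 CPM in mild livers (0.92 ± 0.18, adjusted p = 0.0008). Thrsp, a regulator of lipogenesis, had 45.5, 63.8 and 61.0 CPM in advanced livers, against 84.9, 80.4, 87.6 and 131 CPM in mild livers (-0.78 ± 0.19, adjusted p = 0.0051). The main enzymes Fasn (-0.29 ± 0.12, adjusted p = 0.087) and Scd1 (0.25 ± 0.14, adjusted p = 0.25) did not pass. Of 18 lipoprotein genes 1 rose, Apoa4 (0.52 ± 0.11), and 4 fell, among them the sterol exporters Abcg5 and Abcg8 (-0.35 ± 0.07 and -0.33 ± 0.08); 2 fell without advanced replicate 2. Of 24 genes of fatty acid oxidation 5 fell and 1 rose, but the falls numbered 1 without advanced replicate 2, 2 without advanced replicate 1 or mild replicate 1, and 3 without mild replicate 4. The rise, Fgf21 (0.32 ± 0.09), was not called without advanced replicate 1 (adjusted p = 0.15). Among lipid droplet genes 1 of 19 fell, Mgll, a monoglyceride lipase, which was not called without advanced replicate 1 (adjusted p = 0.059). Xenobiotic enzymes fell in 4 of 19 cases, with Cyp2c50 lowest (-1.13 ± 0.25). It had a single peak, at 4.56 CPM in advanced and 9.91 CPM in mild livers. Another call, Cyp3a25, was lost in 5 of the 7 fits without 1 library (adjusted p up to 0.25). Without advanced replicate 1 or 2 or mild replicate 1, 2 or 4 the list had 3 falls.

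For the stress and inflammation lists the shares to compare are those of all genes, 9.63% higher and 7.76% lower. Of 28 inflammation genes 2 rose and 2 fell, with the chemokine Cxcl16 higher by 1.13 ± 0.24 in a single peak (adjusted p = 0.0021). The falls, Saa1 and Lbp, were both lost without advanced replicate 1 or advanced replicate 2, and the other rise, Rela, without advanced replicate 2 or mild replicate 1. Endoplasmic reticulum stress genes (1 of 18) and NRF2 targets (1 of 19) rose singly, with Ddit3 and Srxn1. Both calls were lost without advanced replicate 2, Srxn1 also without advanced replicate 1 (adjusted p up to 0.068), and Ddit3 in 5 of the 7 fits without 1 library (up to 0.23). Of 18 p53 targets 4 rose, led by the cell cycle inhibitor Cdkn1a with 74.4, 84.7 and 62.9 CPM in advanced livers, against 50.2, 52.8, 48.7 and 51.0 CPM in mild livers (0.54 ± 0.11, adjusted p = 0.0011). There were 1 to 2 such rises without advanced replicate 2 (1), advanced replicate 3 (2) or mild replicate 4 (2). Ccnd2, cyclin D2, and Cdk4 were the rises among 22 cell cycle genes, by 0.93 ± 0.22 and 0.33 ± 0.09, where 9.63% of all genes rose. Without advanced replicate 2 there was 1 such rise, and without advanced replicate 1 or mild replicate 3 there were 4.

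Markers of other liver cells gave no common direction. Among all genes 9.63% rose and 7.76% fell. Of 9 measured macrophage markers of 22, 1 rose and 1 fell, with summed levels of 302 to 341 CPM in advanced and 313 to 341 CPM in mild livers. Neither call, Cx3cr1 nor Itgam, held without advanced replicate 1, advanced replicate 2, mild replicate 1 or mild replicate 4. Ptprc, the common leukocyte antigen, had 13.0, 17.95 and 20.2 CPM in advanced livers, against 22.2, 21.5, 19.1 and 20.8 CPM in mild livers (-0.32, adjusted p = 0.12). Of 15 endothelial markers 3 rose and 3 fell, summed at 450 to 492 CPM in advanced and 422 to 452 CPM in mild livers. Among the rises Vwf, von Willebrand factor, had 73.7, 83.0 and 83.6 CPM, against 48.1, 44.0, 47.5 and 43.1 CPM in mild livers (0.81 ± 0.10, adjusted p = 5.7e-06). Among the falls Tie1 changed by -0.69 (adjusted p = 0.0051), and it passed in all 7 fits that left out 1 library. Without advanced replicate 2 or mild replicate 1 there were 2 rises and 1 fall. Over all settings tried the rises ranged from 0 to 3 and the falls from 1 to 4. Of 6 measured lymphocyte markers Themis and Cd4 fell (-0.58 ± 0.08 and -0.74 ± 0.12), and the sum was 356 to 378 CPM in advanced and 380 to 402 CPM in mild livers. Their part in the other changes was not tested. Of 20 hepatocyte markers 3 fell, Cyp2e1, Tdo2 and Ttr, and the sum overlapped, at 3491 to 3869 CPM in advanced and 3654 to 4036 CPM in mild livers. Without advanced replicate 1 or 2 or mild replicate 1 or 4 only Cyp2e1 was called, and with the 7 libraries alone 8 fell and 1 rose.

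**Figure D4:**
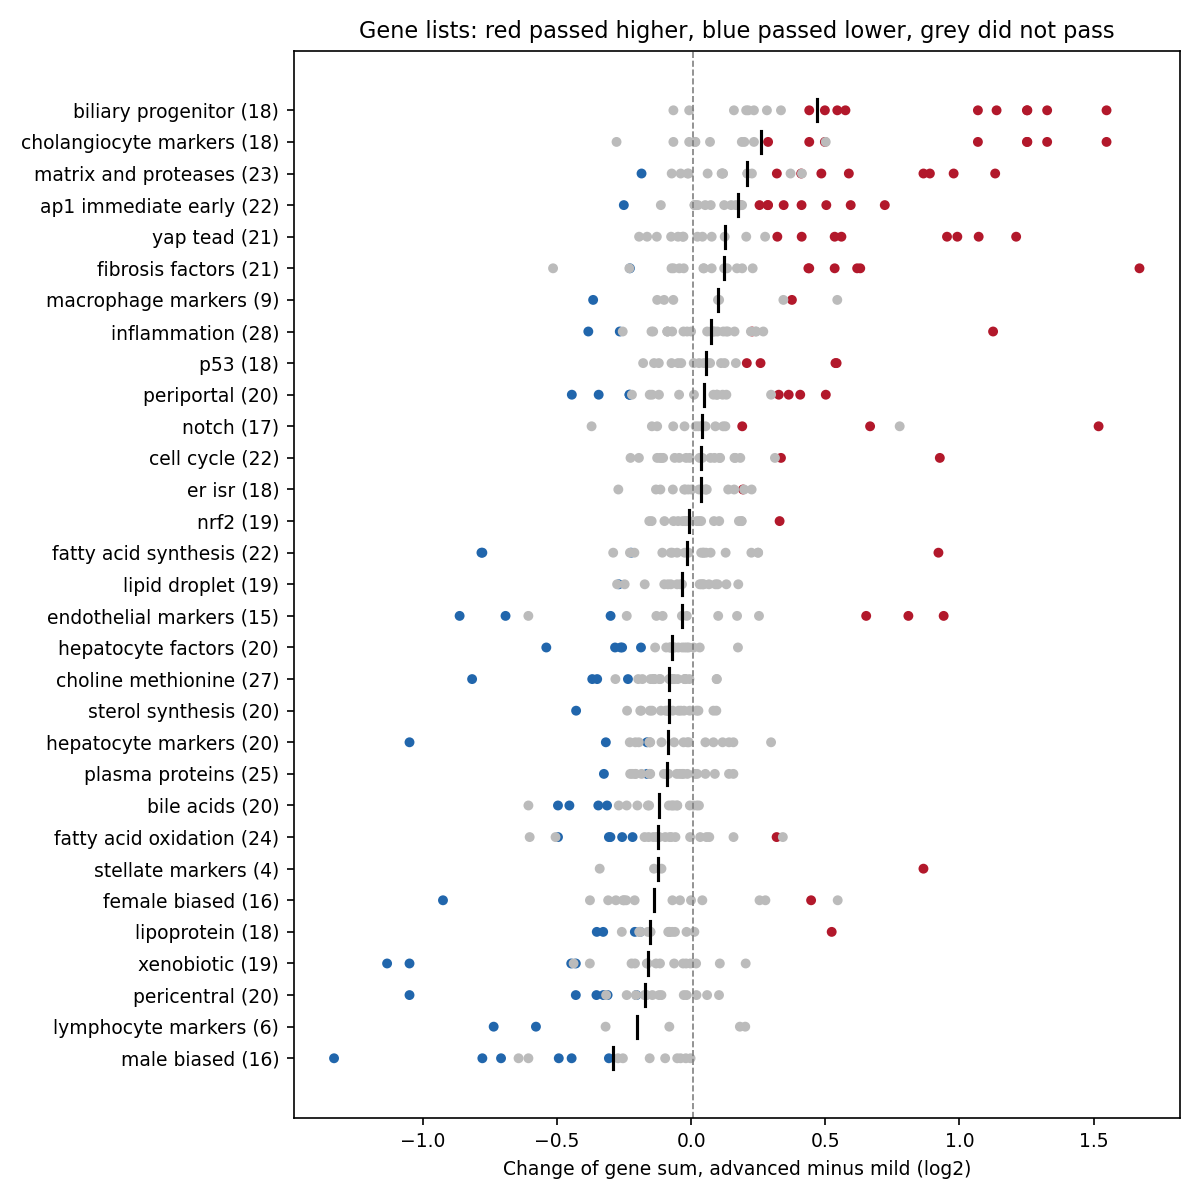
Log2 change of the gene sums, advanced minus mild, for each measured gene of the lists with at least 3 measured genes, ordered by list median (black tick), with the number of measured genes in brackets. Red genes passed as higher, blue as lower, grey did not pass, and the dashed line is the median of all genes. Biliary and progenitor genes have the highest median (0.47) and male-biased genes the lowest (-0.29).

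The printed promoters can be set beside their values. Tspan15, a tetraspanin that escorts the protease ADAM10, had 30.1, 32.4 and 28.2 CPM at its promoter in advanced livers, against 13.1, 15.4, 13.6 and 11.3 CPM in mild livers (1.18 ± 0.16, adjusted p = 2.4e-05), and controls had 11.3 ± 1.64 CPM. Dab2ip had 28.2, 36.7 and 30.7 CPM, against 12.7, 11.2, 18.4 and 10.7 CPM in mild livers (1.28 ± 0.18). Lrtm1 had 3.85, 7.34 and 7.40 CPM in advanced livers, against 11.6, 11.5, 10.7 and 18.6 CPM in mild livers (-1.13 ± 0.23), and Thrsp 11.3, 15.02 and 12.8 CPM, against 21.0, 24.6, 21.5 and 31.8 CPM (-0.96 ± 0.20). The printed promoters were taken from promoter peaks that passed the test without overlap between the groups, so their separation is no result.

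Short words were counted on both strands in RefSeq windows of 300 bases, from 250 before to 50 after the start, for the 8935 promoter peaks that overlapped a window by at least 100 bases. The AP-1 word TGANTCA was in 9.82% of 550 windows that rose, 6.61% of 121 that fell and 4.57% of all 8935. The C/EBP word TTGCNNAA was in 6.73%, 17.4% and 8.18% of them, and the forkhead word TGTTTAC in 0.727%, 5.79% and 2.69%. The ETS word CCGGAAG was in 8.73%, 4.96% and 19.5%, the TEAD word GGAATG in 13.3%, 9.09% and 11.2%, and the NRF2 word, which can overlap the AP-1 word, in 16.5%, 9.92% and 15.4%. The NF-kB word GGANNNTCC was in 10.4%, 8.26% and 10.2%. The words of HNF4A (CAAAGTCCA), GLIS (GACCACCCA) and CTCF (CAGGGGGCG) were each in under 5% of any set. Base composition moved with these shares: median GC content was 63.67% in windows that rose, 53.67% in those that fell and 62.0% in all, and its part in them was not tested. Over all 32817 windows of the table the AP-1 word was in 7.81% and the ETS word in 8.86%. A match is a description of letters and not of binding.

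Whether the same changes went with advanced disease on another diet was asked with the FPC libraries, which share none with the CDAHFD comparison. There 10135 peaks were higher and 10020 lower in advanced than in mild livers, 29.3% of all, and 31.5% of genes passed. Changes on both diets correlated across peaks with r = 0.819 and across genes with r = 0.830, which are descriptions, since peaks and genes are not independent replicates and all mice were sorted by the same histology. Peaks called in the same direction on both diets numbered 8542, which is 75.0% of the CDAHFD calls and 42.4% of the FPC calls, and 6 were called in opposite directions. Of CDAHFD calls 97.8% had the same sign on FPC. Peaks that rose on CDAHFD had median changes of 0.86 on CDAHFD and 1.00 on FPC, and those that fell -0.70 and -0.66. These peaks were picked by passing on CDAHFD, which can enlarge their CDAHFD medians. The medians therefore do not compare the size of the change between diets.

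The difference between diets itself passed for 21 peaks (0.0305%) and 20 genes (0.128%). The change on CDAHFD was the more positive in 11 of these peaks (0.016%) and the more negative in 10 (0.0145%), and in 9 (0.0574%) and 11 (0.0701%) of the genes. These counts depended on single libraries. Without FPC advanced replicate 1 they were 91 and 90, and in the other fits they ranged from 3 to 16 peaks and from 4 to 25 genes. At an unadjusted p under 0.05 there were 6028 peaks and 1574 genes. Cdh1 is the periportal gene among them: it had 252 ± 3.20 CPM in advanced and 196 ± 11.1 CPM in mild CDAHFD livers, and 241 ± 23.7 CPM in advanced and 115 ± 13.9 CPM in mild FPC livers (SD, n = 3 and 4). Its changes of 0.36 and 1.06 differed by -0.70 ± 0.13 (adjusted p = 0.022).

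The difference between diets with the smallest p at a gene was at 4930482G09Rik, with 10.1 ± 0.951 CPM in advanced and 22.7 ± 3.13 CPM in mild CDAHFD livers, and 3.12 ± 1.62 CPM in advanced and 25.7 ± 0.980 CPM in mild FPC livers. It fell on both diets and by more on FPC (difference 1.90 ± 0.25, adjusted p = 0.0015). Arhgef2, an activator of RhoA, had 74.4 ± 7.77 CPM in advanced and 55.4 ± 2.58 CPM in mild CDAHFD livers, and 56.9 ± 6.12 CPM in advanced and 24.3 ± 1.16 CPM in mild FPC livers. The promoter peak of Ephb4, an ephrin receptor, had 46.6 ± 5.51 CPM in advanced and 41.7 ± 1.80 CPM in mild CDAHFD livers, and 49.4 ± 4.12 CPM in advanced and 20.5 ± 4.58 CPM in mild FPC livers (difference -1.13 ± 0.16, adjusted p = 0.0041). In these genes except 4930482G09Rik mild FPC livers held the lowest level of the 4 groups. Glis2 and Elf3 rose by 0.77 and 0.52 on FPC. Their differences between diets were -0.45 ± 0.10 (adjusted p = 0.075) and -0.36 ± 0.11 (adjusted p = 0.26), and neither passed.

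**Figure D5:**
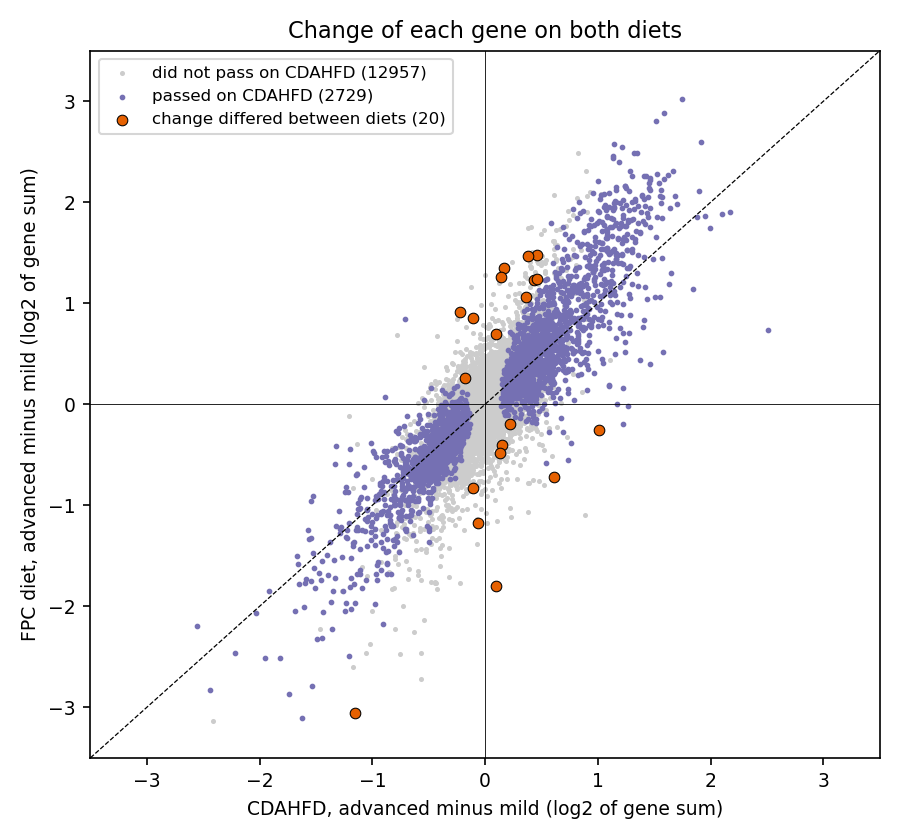
Log2 change of each of 15686 gene sums, advanced minus mild, on CDAHFD (horizontal axis) and on FPC (vertical axis), with equal changes on the dashed diagonal. Purple genes passed on CDAHFD (2729), grey did not, and orange circles mark the 20 genes whose change differed between diets; r across genes is 0.830.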

How the data were processed

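ATAC-seq libraries from immunoprecipitated nuclei of male mice gave paired reads, per the labels' protocols. The build was mm10 and the tools named are HOMER, DESeq2, SAMtools and BWA 0.7.5a-r405, per the submitters' processing notes. The authors' deposited table holds expected counts per peak in steps of 0.5 (47.8% of values carry the fraction), which were rounded to whole numbers. Regions, distances and nearest genes are the authors' annotation. Peaks are 200 bases long, and 3184 neighbouring pairs overlap. The deposited normalized table was not used.

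Counts were analysed in R 4.3.3 with edgeR 4.0.16: TMM scaling (factors 0.984 to 1.02), filterByExpr, which kept all peaks, and a quasi-likelihood fit of 6 groups to all 22 libraries, which share the estimate of spread. The contrast was advanced minus mild CDAHFD. Calls have a Benjamini-Hochberg adjusted p under 0.05, and SE is the log2 change divided by the square root of F. CPM is per TMM-scaled total, and log2 CPM adds a prior count of 2. Gene sums cover peaks within 50 kb (82.5% of peaks), were scaled on their own table, and measure open chromatin, not expression. Named genes are the 10 largest rises and falls with at least 3 peaks, above-median abundance over all 22 libraries and no overlap. Added to them are up to 4 genes per list by p, and 7 always reported. Other genes in the text (such as Jun, Yap1, Fn1, Fasn, Bhmt, Cyp7a1 and Krt8) and the printed promoters were chosen after their values were seen. The members and the 32 lists (619 genes, 542 with a peak) were chosen with earlier results of these data known. No genome was used, so words were searched in RefSeq promoter windows in place of peaks.

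On simulated counts for advanced against mild CDAHFD, 29.9% of 1.5-fold, 80.6% of 2-fold and 98.5% of 4-fold changed peaks among 68827 were recovered with 7 false calls, and 89.6%, 97.0% and 100% of changed genes among 15686 with 10 false calls. Only 67, 67 and 66 peaks, and as many genes, were given these changes, whereas 11385 peaks and 2729 genes were called in the data. With so few changes the adjusted threshold is stricter than in the data, so these shares do not measure recovery there. Alternatives were median-ratio and loess scaling, DESeq2 1.42.0, filters, cutting fractional counts, the 7 libraries alone, leaving out each library, and gene sums within 1 and 10 kb. Added after seeing the data were scaling gene sums as in the peak table, a term for title numbers of 5 against 4 digits, and the libraries with 4-digit numbers alone. Some genes of the lists are not reported here.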

Additional observations from a re-analysis of the deposited data

Results flagged for a closer look

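In 131 groups of 4 mild libraries tested, 8 had 1 library far from the other 3, where chance gives about 1 in 20. Of the 8, 4 were mild replicate 3 and 4 were mild replicate 4. Mild replicate 3 was high at Mir23a (63.1 CPM, nearest 49.5) and at Tnfrsf10b (18.5 CPM) and low at Slco1b2 (154 CPM) and Rgn (77.7 CPM), each time on the side of the advanced libraries. Mild replicate 4 was high at Thrsp (131 CPM), Itga6 (30.7 CPM), Sult3a1 (8.79 CPM) and Saa1 (114 CPM).

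The change between advanced and mild livers differed between CDAHFD and FPC by the test of the difference itself. CDAHFD minus FPC, the log2 differences at single peaks were 1.44 near Mir7021, 1.88 in 4930482G09Rik, -1.13 at Ephb4, -1.53 near Gpr37l1, -1.89 in Igf2bp3 and 1.88 in St6galnac3. At gene sums they were 1.90 for 4930482G09Rik, -1.13 for Gm38404, -0.78 for Gpr37l1, -1.12 for Tekt5, -0.80 for Arhgef2, -1.18 for Hist1h2bp and -0.70 for Cdh1.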

How the results depend on the processing

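No paired analysis was possible because replicate numbers only follow accession order and the labels link no libraries. Peak counts stayed within 1.5 times the reported ones under every scaling, filter, count rule and tool tried, from 4607 to 6899 higher and from 4376 to 5540 lower, and were 7337 and 5575 with the 7 libraries alone. Leaving out 1 library gave 4238 to 6419 higher and 2617 to 4814 lower peaks, 971 to 1434 higher and 640 to 1268 lower genes, and 3 to 91 peaks and 4 to 90 genes that differed between diets. DESeq2 called 90 peaks and 40 genes as different between diets. Gene sums within 1 kb gave 557 higher and 407 lower genes; they called 26.9% of the 2729 genes, and 58.7% within 10 kb. Of 85 named genes with a peak within 1 kb, 55 kept their side of the threshold and their direction. In that fit the changes of Alb (-0.22), Hnf4a (0.06158), Abca1 (0.04355), A1bg (-0.0551), Ctsc (0.22) and Mdm2 (-0.00202) turned sign, and within 10 kb those of Alb (-0.10), A1bg (-0.07824) and Ctsc (0.52). Hnf4a also turned with loess scaling (0.0122), with the peak table's scaling (0.02099) and without mild replicate 4, where leaving out 1 library gave -0.0253 to 0.000403. The causes were not tested, except that fewer peaks enter the sums within 1 and 10 kb. With the peak table's scaling, added after seeing the data, 1815 genes were higher and 1011 lower. Also added then, title numbers of 5 digits as a term kept 99.7% of called peaks and 99.4% of called genes; the libraries with 4-digit numbers alone gave 2735 lower peaks and 8 genes that differed between diets. Of 105 named genes that passed, 72 passed in all 7 fits that left out 1 library. Changes of 1.5-fold in single peaks were mostly missed in the simulation. It changed far fewer peaks than were called in the data, so it does not give the share missed there.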
